A study of Homo sapiens with 6 samples.

Results

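The RNA levels of 10 target and feedback genes of Wnt/β-catenin signaling, AXIN2, NKD1, RNF43, ZNRF3, LGR5, DKK1, NOTUM, TCF7, LEF1 and SP5, were compared between HepG2 cells with and without a hairpin against the lncRNA LINC01977. HepG2 is an established human cell line derived from liver cancer. The genes were taken by name, and all 10 were found among the 29153 genes of the table. Of these, 9 had a mean FPKM (fragments per kilobase of transcript, scaled to library size) of at least 0.5 and were tested among the 13452 genes at or above that level. LEF1 lay below it and was read from a fit of all 29153 genes. The control cells (sh-NC) and the knockdown cells (sh-LINC01977) each gave 3 libraries, from HepG2 cells that had received the respective lentiviral hairpin for 72 h. According to the study's methods, infected cells were selected with puromycin. The labels name a single hairpin against LINC01977, and nothing says whether the 3 libraries of a group came from separate cultures, so that p-values measure the spread between these libraries, which may be technical.

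In Wnt/β-catenin signaling, a Wnt ligand bound to Frizzled and LRP receptors stops a cytoplasmic destruction complex from marking β-catenin for degradation, and β-catenin then enters the nucleus and activates genes together with transcription factors of the TCF/LEF family. Several of the activated genes encode inhibitors of the pathway itself, so that AXIN2, NKD1, RNF43, ZNRF3, DKK1 and NOTUM are used both as readouts and as examples of negative feedback. HepG2 cells carry a deletion in CTNNB1, the gene of β-catenin, that stabilizes the protein, and the pathway is known to be active in this line without added ligand. In the liver, the same pathway is known for setting the gene program of hepatocytes around the central vein.

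Of the members whose proximal promoter could be searched, DKK1 and SP5 hold a match to CTTTGAT or CTTTGAA, forms of the core TCF/LEF motif. The promoters of DKK1 and SP5 are shown. The search covered the 250 bases before the start site in RefSeq promoters (build GRCh38.p14), in which 5 of the 10 members were found, with 7 promoters in all. AXIN2, NKD1, ZNRF3, LGR5 and NOTUM had no entry there and were not searched. The motifs were CTTTGAT and CTTTGAA, read on both strands, which do not overlap each other in these promoters. Other forms, such as CTTTGTT, were not counted as matches. CTTTGTT occurs unmarked in the DKK1 promoter shown and, on the antisense strand, in a TCF7 promoter. Of the 35116 promoters in the table, 5.94% held at least 1 match and 0.0199% at least 3. The promoter of DKK1 (chr10:52314031-52314280, plus strand) held 1 match, and that of SP5 (chr2:170715087-170715336, plus strand) held 3, while these letters were not in the windows of RNF43, TCF7 and LEF1. In DKK1 the match covered bases 95 to 89 before the start, on the sense strand. In SP5 the matches covered bases 148 to 142 and 84 to 78 on the antisense strand, and 109 to 103 on the sense strand. Capitals mark the matches, which describe the sequence and do not show that a factor is bound.
DKK1 promoter: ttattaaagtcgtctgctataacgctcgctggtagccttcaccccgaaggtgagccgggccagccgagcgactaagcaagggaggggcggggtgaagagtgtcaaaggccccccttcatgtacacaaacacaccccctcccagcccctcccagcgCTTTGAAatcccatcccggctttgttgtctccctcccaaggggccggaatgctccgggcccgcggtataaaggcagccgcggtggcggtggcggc
SP5 promoter: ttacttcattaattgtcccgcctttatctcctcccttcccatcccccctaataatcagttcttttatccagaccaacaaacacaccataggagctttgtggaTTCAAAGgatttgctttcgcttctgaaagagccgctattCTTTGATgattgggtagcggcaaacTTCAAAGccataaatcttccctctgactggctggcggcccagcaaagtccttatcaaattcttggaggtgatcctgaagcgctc

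The libraries held between 49929024 and 60441515 counts. Pearson's r of log2 CPM (CPM being the count scaled to library size), over the tested genes, ran from 0.981 to 0.984 for libraries of the same group and from 0.973 to 0.975 for libraries of different groups. The targeted gene LINC01977 was close to undetected in both groups, with counts of 4, 0 and 16 in sh-NC cells against 0, 0 and 4 in sh-LINC01977 cells, and its reduction was not detectable at this depth (log2 fold change -2.12, standard error 1.96, adjusted p = 0.580, edgeR). The study reports a check of the knockdown by qRT-PCR in stable HepG2 cells, without saying whether these were the sequenced cells. All 10 hepatocyte markers that were looked up, among them ALB and AFP, were above 0.5 FPKM. Their summed level was lower after knockdown, with 4900 to 5285 FPKM in sh-NC and 3660 to 3697 FPKM in sh-LINC01977 libraries. At an adjusted p under 0.05 (edgeR), 7 of the 10 were lower, against 8.07% of all tested genes. Of 8 mesenchymal markers, 5 were listed and 2, COL1A1 and PDGFRB, were above 0.5 FPKM. The sum over the 5 was 3.04 to 4.21 FPKM in sh-NC and 5.48 to 7.67 FPKM in sh-LINC01977 libraries. PDGFRB was higher (log2 fold change 1.47, adjusted p = 0.00620, edgeR), and COL1A1 did not pass the test (0.73, adjusted p = 0.0504, edgeR). COL1A2, LUM and DCN were not listed, and THY1 and COL3A1 had a count of 0 in some libraries. Of 6 endothelial markers, 5 were listed and 0 reached 0.5 FPKM, with sums of 0.282 to 0.464 and 0.233 to 0.327 FPKM. Of 6 leukocyte markers, 5 were listed and 4 were above 0.5 FPKM, while PTPRC had a count of 0 in some libraries. The sums were 626 to 634 FPKM in sh-NC and 543 to 559 FPKM in sh-LINC01977 libraries, mostly from LYZ. LYZ was lower (log2 fold change -0.27, adjusted p = 0.00537, edgeR), and the other 3 tested did not pass. The part of these marker levels in the results on Wnt targets was not tested. In bulk RNA, fewer cells of a type and less RNA per cell cannot be told apart.

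The Wnt targets did not move together after knockdown. DKK1 rose 1.79-fold, AXIN2 1.36-fold and RNF43 1.19-fold, NKD1 fell to 0.762 of its control level, and the other 5 tested members did not pass the test. Thus 3 of 9 tested members were higher and 1 of 9 lower at an adjusted p under 0.05 (edgeR, quasi-likelihood, Benjamini-Hochberg adjustment over 13452 genes). Over all tested genes, 15.1% were called, 7.05% higher (948 genes) and 8.07% lower (1085 genes). When libraries were scaled by their totals and not by TMM, the calls over all genes were 1455 higher and 768 lower, and those among the members were again 3 and 1. The median log2 fold change was -0.088 over the 9 members and -0.0010 over all tested genes, and the median of its absolute value was 0.27 against 0.18. No tested member (0 of 9) passed the study's own thresholds, namely a 2-fold change together with an unadjusted p no larger than 0.05, which 1.55% of all tested genes passed upward and 1.05% downward. At an unadjusted p under 0.05, 5 of the 9 were past the test, against 30.5% of all tested genes. For 6 of the 9 tested members every library of a group lay on one side of the other group, against 37.1% of all tested genes.

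**Figure D1:**
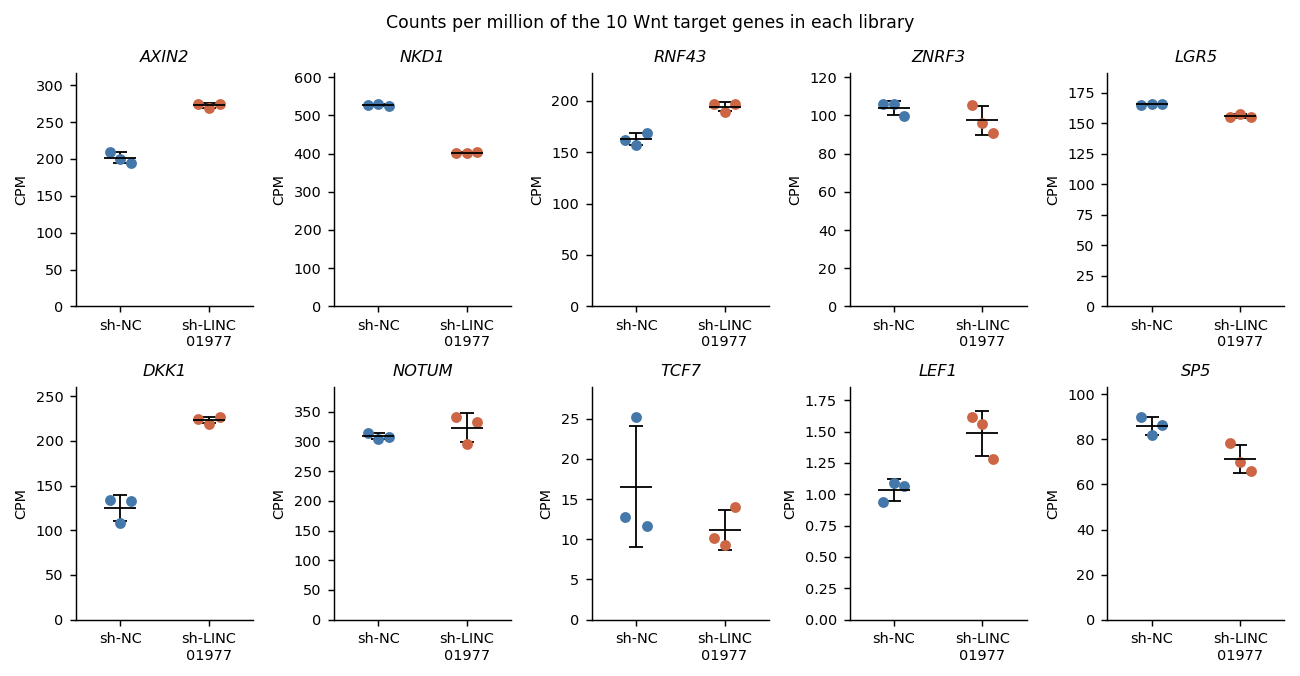
CPM (counts scaled to library size, y axis, starting at 0) of the 10 genes in each library. Points are libraries (3 per group), horizontal bars are group means and error bars are SD. AXIN2, DKK1 and RNF43 lie higher and NKD1 lies lower in every sh-LINC01977 library, while one sh-NC library of TCF7 stands at 25.2 CPM.

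Among the intracellular inhibitors, AXIN2 and NKD1 moved in opposite directions. AXIN2 (ENSG00000168646, GRCh38 chromosome 17, 65528563 to 65561647, minus strand) encodes a scaffold of the destruction complex and is itself a β-catenin target. It had 209.7, 199.5 and 195.1 CPM in the sh-NC libraries and 275, 269 and 275 CPM in the sh-LINC01977 libraries. Here CPM divides each count by the TMM-scaled library total. Every knockdown library lay above every control library. The log2 fold change was 0.44 (standard error 0.043, 95% interval 0.34 to 0.54, adjusted p = 0.00187, edgeR). NKD1 (ENSG00000140807, chromosome 16, 50548330 to 50649249, plus strand), which encodes naked cuticle homolog 1, an antagonist that binds Dishevelled, had 527, 531 and 526 CPM in sh-NC and 401, 403 and 403 CPM in sh-LINC01977 libraries. The groups were far apart relative to their spread, with a coefficient of variation of 0.487% in sh-NC and 0.315% in sh-LINC01977 libraries. The median over all tested genes was 8.42% and 8.02%, but it covers many genes with fewer counts than NKD1 (20752 to 30950 per library). A spread taken from 3 libraries is itself uncertain. For NKD1 the log2 fold change was -0.39 (standard error 0.032, 95% interval -0.47 to -0.32, adjusted p = 0.00124, edgeR). The listed genes that overlap AXIN2 (AC004805.1) or NKD1 (AC007608.1, AC007608.2 and AC007608.4) had at most 89 counts in any library.

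The membrane ubiquitin ligases RNF43 and ZNRF3 remove Frizzled receptors from the cell surface, and of the pair RNF43 rose. RNF43 (ENSG00000108375, chromosome 17, 58352500 to 58417595, minus strand) had 162, 157 and 169 CPM in sh-NC and 197, 189 and 197 CPM in sh-LINC01977 libraries. The groups did not overlap, and the log2 fold change was 0.26 (standard error 0.046, 95% interval 0.15 to 0.37, adjusted p = 0.0140, edgeR). Without the first sh-LINC01977 library the adjusted p of RNF43 was 0.0502, and without the third library it was 0.0513, at log2 fold changes of 0.25 in both fits (edgeR). SUPT4H1, which overlaps RNF43 on the same strand, had a log2 fold change of -0.044 (adjusted p = 0.884, edgeR). ZNRF3 (ENSG00000183579, chromosome 22, 28883592 to 29057487, plus strand) had 105.9, 106.2 and 99.55 CPM in sh-NC and 106, 96.0 and 90.8 CPM in sh-LINC01977 libraries. These ranges overlapped, and the log2 fold change of -0.092 had a 95% interval from -0.26 to 0.073 (adjusted p = 0.414, edgeR). The transcripts overlapping it, ZNRF3-AS1 and ZNRF3-IT1, had at most 8 counts in any library.

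LGR5, a receptor for R-spondins and a marker of Wnt-dependent stem cells, changed little. Its levels (ENSG00000139292, chromosome 12, 71439770 to 71586310, plus strand) were 165, 166 and 166 CPM in sh-NC and 155, 158 and 155 CPM in sh-LINC01977 libraries. The CPM of the groups did not overlap, but the FPKM did, with 24.7, 25.3 and 25.3 FPKM in sh-NC and 24.5, 24.6 and 24.9 FPKM after knockdown. The log2 fold change of -0.088 (95% interval -0.18 to 0.0035) did not pass the test (adjusted p = 0.178, edgeR). TSPAN8 and AC078860.1 overlap LGR5 on the other strand and AC090116.1 on the same strand, each with at most 210 counts in any library.

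Of the secreted inhibitors, DKK1 showed the largest change among the called members. DKK1 (ENSG00000107984, chromosome 10, 52314296 to 52318042, plus strand), which binds the LRP co-receptors and blocks signaling by Wnt ligands, had 134, 108 and 132 CPM in sh-NC and 224, 219 and 227 CPM in sh-LINC01977 libraries. The lowest knockdown library was well above the highest control library, and the second sh-NC library was the lowest of its group. The log2 fold change was 0.84 (standard error 0.0885, 95% interval 0.63 to 1.05, adjusted p = 0.00228, edgeR). NOTUM (ENSG00000185269, chromosome 17, 81952507 to 81961840, minus strand), an esterase that removes the lipid from Wnt ligands, had 315, 304 and 308 CPM in sh-NC and 341, 296 and 332 CPM in sh-LINC01977 libraries. The second knockdown library lay below all control libraries and the others above them. Its log2 fold change of 0.065 had a 95% interval from -0.078 to 0.21 (adjusted p = 0.510, edgeR).

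Of the transcription factors, SP5 and TCF7 were tested and 0 of 2 passed at an adjusted p under 0.05, while 1 of 2, SP5, had an unadjusted p under 0.05 (edgeR). SP5 (ENSG00000204335, chromosome 2, 170715351 to 170718078, plus strand), a zinc finger protein of the Sp family that is induced by β-catenin, had 90.0, 82.0 and 86.3 CPM in sh-NC and 78.2, 70.1 and 65.9 CPM in sh-LINC01977 libraries. The highest knockdown library lay below the lowest control library, and the log2 fold change was -0.27 (standard error 0.077, 95% interval -0.45 to -0.085, unadjusted p = 0.0110, adjusted p = 0.0633, edgeR). TCF7 (ENSG00000081059, chromosome 5, 134114711 to 134151865, plus strand), which encodes TCF-1, had 12.8, 25.2 and 11.7 CPM in sh-NC and 10.2, 9.33 and 14.0 CPM in sh-LINC01977 libraries. The second sh-NC library had about as much as the remaining control libraries together, and the groups overlapped. Its log2 fold change was -0.57 (95% interval -1.34 to 0.20, adjusted p = 0.285, edgeR), and without the second sh-NC library it was -0.13 (adjusted p = 0.706, edgeR). SKP1, an abundant gene on the other strand, overlaps TCF7, and the sources do not say if reads were counted by strand. The log2 fold change of SKP1 was -0.074 (adjusted p = 0.642, edgeR). LEF1 (ENSG00000138795, chromosome 4, 108047545 to 108168956, minus strand) was the lowest member, with counts of 51, 54 and 63 in sh-NC and 89, 95 and 66 in sh-LINC01977 libraries. All knockdown counts were above all control counts, and in the fit of all genes the log2 fold change was 0.51 (standard error 0.24, 95% interval -0.040 to 1.06, adjusted p = 0.331, edgeR).

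**Figure D2:**
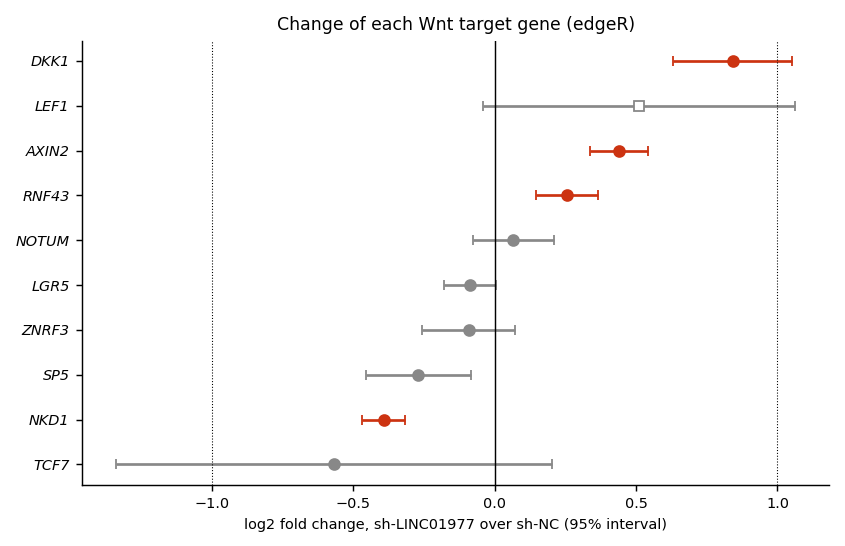
Log2 fold change (x axis, sh-LINC01977 over sh-NC) of each gene from edgeR, with 95% intervals. Red marks an adjusted p under 0.05, grey a larger one, the open square is LEF1 from the fit of all genes, and dotted lines stand at a fold of 2. DKK1, AXIN2 and RNF43 lie above 0 and NKD1 below, and the widest interval is that of TCF7, from -1.34 to 0.20.

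For each of the 10 members, log2 CPM was in addition put through an exact permutation test, two-sided, in which 3 libraries against 3 cannot give a p under 0.1. The exact p was 0.1 for AXIN2, NKD1, RNF43, LGR5, DKK1, LEF1 and SP5 (0.143 after Benjamini-Hochberg adjustment over the 10 members). It was 0.2 for ZNRF3, 0.3 for TCF7 and 0.4 for NOTUM (adjusted, 0.25, 0.333 and 0.4; exact permutation test).

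Ratios of counts within a library do not depend on how libraries are scaled, and they were taken for members of like role. The ratio of AXIN2 to NKD1 was 0.398, 0.376 and 0.371 in sh-NC and 0.687, 0.668 and 0.682 in sh-LINC01977 libraries, a difference of 0.83 in the mean log2 ratio (exact two-sided permutation test, p = 0.1). The 2 inhibitors thus shifted against each other in every knockdown library. The ratio of RNF43 to ZNRF3 was 1.53, 1.48 and 1.70 in sh-NC and 1.86, 1.97 and 2.17 in sh-LINC01977 libraries, a log2 difference of 0.35 (exact p = 0.1). The ratio of DKK1 to NOTUM was 0.427, 0.354 and 0.430 in sh-NC and 0.657, 0.741 and 0.683 in sh-LINC01977 libraries, a log2 difference of 0.79 (exact p = 0.1). In all of these pairs the knockdown libraries lay above the control libraries. The ratio of TCF7 to LEF1 was 13.6, 23.0 and 10.9 in sh-NC and 6.29, 5.98 and 10.9 in sh-LINC01977 libraries, a log2 difference of -1.02 (exact p = 0.1), with the groups all but touching at 10.9. Each p of 0.1 is the smallest that the design allows, and it stays 0.1 after Benjamini-Hochberg adjustment over the 4 ratios, which were chosen after values were seen (exact permutation test).

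**Figure D3:**
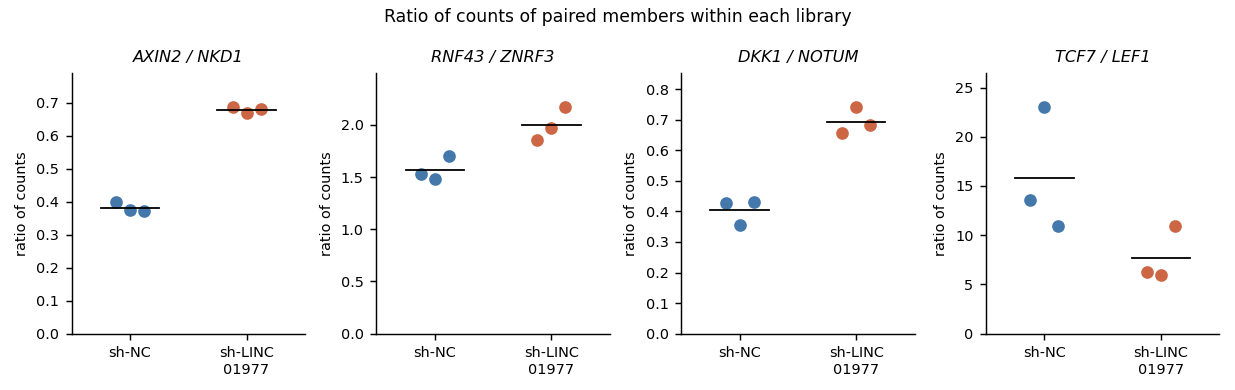
Ratio of the counts of paired genes (y axis, starting at 0) within each library. Points are libraries, 3 per group, and lines are group means. The ratio of AXIN2 to NKD1 lies between 0.371 and 0.398 in sh-NC and between 0.668 and 0.687 in sh-LINC01977 libraries, and the lowest sh-NC and the highest sh-LINC01977 value of TCF7 to LEF1 are both 10.9.

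On the FPKM scale, which takes transcript length into account, most Wnt targets were abundant in HepG2 cells. In sh-NC cells the order of the mean level was NOTUM (81.2 ± 0.81 FPKM), DKK1 (44.9 ± 5.2), SP5 (33.2 ± 1.3), AXIN2 (30.6 ± 0.81), LGR5 (25.1 ± 0.34), NKD1 (24.1 ± 0.30), RNF43 (17.2 ± 0.69), ZNRF3 (11.8 ± 0.37), TCF7 (1.295 ± 0.599) and LEF1 (0.148 ± 0.015; SD, n = 3 each). No neighbours in that order overlapped in their libraries. After knockdown DKK1 reached 84.1 ± 2.7 FPKM and its libraries overlapped those of NOTUM, at 88.9 ± 7.5 FPKM (SD, n = 3 each). AXIN2, at 43.4 ± 1.1 FPKM, then stood above SP5, at 28.8 ± 2.4 FPKM, and RNF43, at 21.5 ± 0.78 FPKM, above NKD1, at 19.2 ± 0.30 FPKM (SD, n = 3 each). By mean FPKM over the 6 libraries, the 8 abundant members lay between the percentiles 78.0 (ZNRF3) and 97.3 (NOTUM) of the tested genes and TCF7 at 16.2. TCF7 had 0.984, 1.99 and 0.916 FPKM in sh-NC and 0.825, 0.752 and 1.16 FPKM in sh-LINC01977 libraries.

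The other genes of the pathway, in 7 lists of 113 genes of which 57 were tested, also moved in both directions. Of these, 10 were higher, 11 lower and 36 not past the test (36.8% called, against 15.1% of all tested genes). The lists were chosen with earlier results of these data known, so this share does not show an excess among Wnt genes in general. DKK4, which was called higher, and SLC1A2, which was called lower, reached the minimum mean of 0.5 FPKM only through the group in which they were higher, so their tests and these counts are not independent of that filter. Without these genes 9 of 55 were higher and 10 of 55 lower (34.5% called). With scaling by library totals the counts were 13 higher and 8 lower. The median log2 fold change was -0.058 over the 57 genes and -0.0010 over all tested genes. The KEGG Wnt signaling pathway in the annotation deposited with the table held 129 genes, 6 of them members. Of its 86 tested genes 10 were higher and 9 lower, which is 22.1% called. Without the members 8 of 81 were higher and 8 of 81 lower, and the 19.8% called lay near the 15.1% of all tested genes. With only the non-member genes above the minimum in both groups, 7 of 80 were higher and 8 of 80 lower (18.8% called).

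Ligands and receptors were mostly low or did not pass the test. Of 21 genes for ligands and their secretion, 3 were tested, and WNT3, which encodes a Wnt ligand, fell from 20.8 ± 1.1 to 14.9 ± 0.58 CPM (SD, n = 3 each; log2 fold change -0.48, adjusted p = 0.0112, edgeR). Of 9 tested receptors and co-receptors, FZD4, a Frizzled receptor, fell from 267 ± 5.0 to 195 ± 2.9 CPM (SD, n = 3 each; log2 fold change -0.45, adjusted p = 0.00134, edgeR), and the other 8 did not pass the test. Of 3 tested secreted modulators and their receptors, KREMEN1 and DKK4 passed the test upward, DKK4 at a mean of 0.228 FPKM in sh-NC and 1.05 FPKM in sh-LINC01977 cells and so tested only through the latter. KREMEN1, a receptor through which DKK proteins remove LRP6, went from 67.6 ± 1.7 to 87.0 ± 3.9 CPM (SD, n = 3 each; log2 fold change 0.36, adjusted p = 0.00804, edgeR). DKK4, a secreted inhibitor related to DKK1, had counts of 17, 14 and 12 in sh-NC and 59, 90 and 45 in sh-LINC01977 libraries (difference of 2.10 on the log2 scale, adjusted p = 0.00855, edgeR).

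The transcript of β-catenin itself did not pass the test. CTNNB1 had 354, 373 and 374 CPM in sh-NC and 389, 397 and 416 CPM in sh-LINC01977 libraries, which did not overlap (log2 fold change 0.13, 95% interval 0.020 to 0.23, adjusted p = 0.109, edgeR). Its adjusted p was 0.0493 with scaling by library totals (edgeR). Of the 16 tested genes of β-catenin and its destruction complex, CSNK1A1 and TNKS were higher, DVL3 was lower and 13 did not pass. CSNK1A1, the kinase that primes β-catenin for degradation, had a log2 fold change of 0.33 (adjusted p = 0.00714, edgeR). TNKS, a tankyrase that promotes the breakdown of axin proteins, had 0.24 (adjusted p = 0.0488, edgeR), and DVL3, a Dishevelled protein, had -0.25 (adjusted p = 0.0203, edgeR). TNKS was called under 4 and DVL3 under 6 of 14 other settings, TNKS in 0 of the 6 fits that leave out a library. Of 11 tested nuclear cofactors, CHD8 and TLE3 were higher and CTNNBIP1, TLE1 and CREBBP lower. CTNNBIP1, an inhibitor that keeps β-catenin from TCF proteins, fell from 55.9 ± 2.5 to 39.4 ± 1.3 CPM (SD, n = 3 each; log2 fold change -0.50, adjusted p = 0.00347, edgeR). TLE1 and TLE3, corepressors of the same Groucho family that bind TCF/LEF factors, had log2 fold changes of -0.36 and 0.54 (adjusted p = 0.00748 and 0.0368, edgeR). CHD8, a chromatin remodeler that binds β-catenin, had 0.26, and CREBBP, a coactivator, had -0.39 on the log2 scale (adjusted p = 0.00866 and 0.0124, edgeR). TLE3 was called under 4 of 13 and CREBBP under 10 of 14 other settings.

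Of 8 tested genes among other reported β-catenin targets, BAMBI and CCND1 rose, SOX9 fell and 5 did not pass. BAMBI, a decoy receptor of TGF-β signaling, had 29.7, 30.8 and 28.8 CPM in sh-NC and 44.5, 46.2 and 47.3 CPM in sh-LINC01977 libraries (difference of 0.63 on the log2 scale, adjusted p = 0.00160, edgeR). CCND1, which encodes cyclin D1, rose from 502 ± 7.3 to 591 ± 22 CPM (SD, n = 3 each; log2 fold change 0.24, adjusted p = 0.0117, edgeR). SOX9, a transcription factor of bile duct and progenitor cells, had a log2 fold change of -0.24 (adjusted p = 0.0487, edgeR) and was called under 3 of 14 other settings, 0 of them with a library left out. MYC had counts of 9411, 8727 and 9976 in sh-NC and 8728, 9778 and 373 in sh-LINC01977 libraries, so the third knockdown library stood far below the others. Its log2 fold change was -0.67 with an adjusted p of 0.659, and without that library it was -0.12 with an adjusted p of 0.202 (edgeR). LGR4, a relative of LGR5, and APC, a component of the destruction complex, were looked at after their values were seen. They were picked since the third library of each group was low. LGR4 had 101, 96.1 and 40.4 CPM in sh-NC and 80.8, 82.7 and 31.5 CPM in sh-LINC01977 libraries. APC had 19.9, 26.0 and 7.05 CPM in sh-NC and 19.2, 20.5 and 2.33 CPM in sh-LINC01977 libraries.

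Genes of hepatocytes around the central vein changed in most cases, and again not in one direction. Of the 7 tested, 2 were higher, 4 lower and 1 not past the test (85.7% called, against 15.1% of all tested genes). Earlier results of these data were known when this list was chosen, so the share does not show an excess. The median log2 fold change was -0.43. SLC1A2, among the 4 lower genes, had a mean of 0.724 FPKM in sh-NC and 0.397 FPKM in sh-LINC01977 cells. It was thus tested only through sh-NC, so this count and median are not independent of the 0.5 FPKM minimum. GLUL, which encodes glutamine synthetase and is the usual marker of β-catenin activity in liver, had 266, 281 and 291 CPM in sh-NC and 191, 174 and 184 CPM in sh-LINC01977 libraries. The groups were well separated, and the log2 fold change was -0.61 (standard error 0.055, 95% interval -0.74 to -0.48, adjusted p = 0.00146, edgeR). RHBG, an ammonium transporter, went from 47.9 ± 3.9 to 28.9 ± 1.6 CPM (SD, n = 3 each; log2 fold change -0.73, adjusted p = 0.00272, edgeR), and RGN, which encodes regucalcin, had a log2 fold change of -0.43 (adjusted p = 0.0115, edgeR). TBX3, a transcription factor, rose from 103 ± 3.5 to 128 ± 5.9 CPM (SD, n = 3 each; log2 fold change 0.32, adjusted p = 0.0117, edgeR), and AHR, the aryl hydrocarbon receptor, had 0.47 on the log2 scale (adjusted p = 0.0240, edgeR; called under 7 of 14 other settings). These values stand beside the lower sum of the hepatocyte markers given above, whose part in them was not tested.

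**Figure D4:**
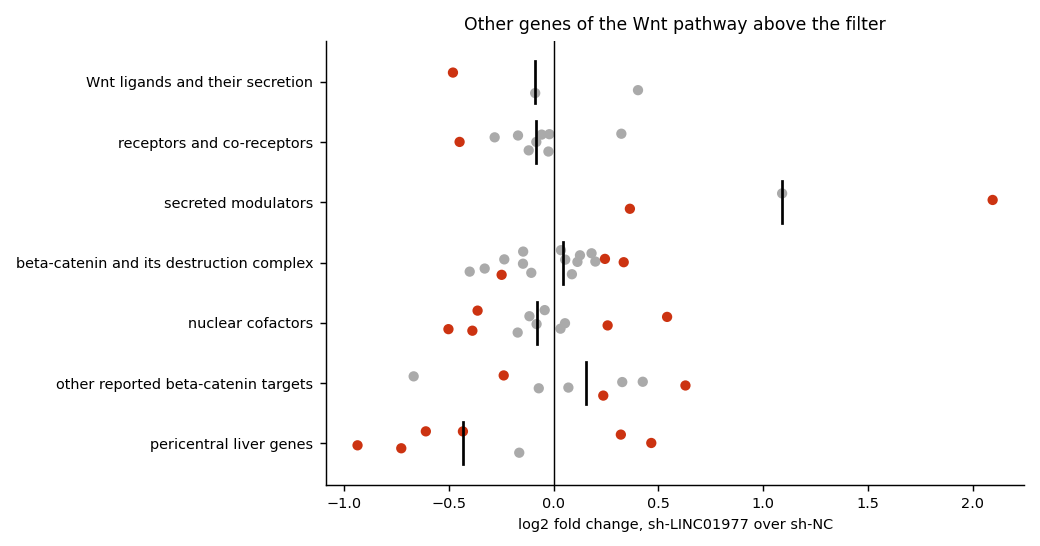
Log2 fold change (x axis, sh-LINC01977 over sh-NC) of the 57 tested pathway genes by list. Points are genes, red at an adjusted p under 0.05, vertical bars are list medians, and the vertical scatter within a list has no meaning. Called genes lie on both sides of 0 in 4 of the 7 lists, and the rightmost point is DKK4 at 2.10.

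The direction of every one of the 10 members was kept under all settings tried for it. The log2 fold change ranged from 0.75 to 0.91 for DKK1, from 0.42 to 0.51 for AXIN2 and from -0.41 to -0.31 for NKD1, and each of these was called under all 14 other settings. RNF43 ranged from 0.23 to 0.32 and was called under 12 of 14, and SP5 ranged from -0.34 to -0.20 and was called under 2 of 14. ZNRF3, LGR5, NOTUM, TCF7 and LEF1 were called under 0 of the settings, with adjusted p from 0.143 upward (edgeR, DESeq2 or limma).

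**Figure D5:**
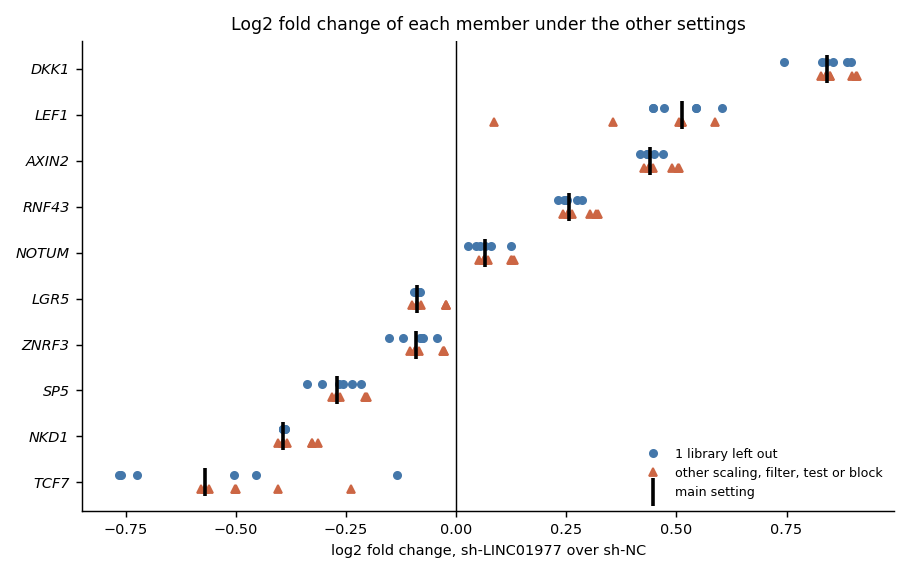
Log2 fold change (x axis, sh-LINC01977 over sh-NC) of each gene under the main setting (black bars), with 1 library left out (blue points) and under other scalings, filters, tests or a replicate block (orange triangles). Values stay on one side of 0 for every gene, from 0.75 to 0.91 for DKK1, while TCF7 spreads from -0.76 to -0.13.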

How the data were processed

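RNA was sequenced from 6 HepG2 libraries, 3 sh-NC and 3 sh-LINC01977, grouped by their titles. The deposited table gives raw counts per gene, as whole numbers, beside FPKM. FPKM, computed by the authors, takes account of transcript length and sequencing depth. Per the labels, the starting material was total RNA. The submitters' processing notes name bcl2fastq 2.0, HISAT2, StringTie, DESeq2, limma and the build hg38, without saying which made which column. Whether counting used strand, and the annotation, are not given in the sources used here. The intervals of all 10 members equal those in GENCODE 29 (GRCh38). A count of 4 occurred in 8101 gene and library pairs, against 2780 for 3 and 1758 for 5, so low counts may not be independent fragments.

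The main test was edgeR 4.0.16 in R 4.3.3, with TMM scaling and quasi-likelihood F tests, over genes whose mean FPKM reached 0.5. Standard errors are the log2 fold change over the square root of F. The tests were checked on simulated counts with changes of at least 2-fold and a common spread for all genes. That check does not cover the smaller changes called among the members. DESeq2 1.42.0, limma 3.58.1 on log2(FPKM + 0.1) and log2(FPKM + 1), other scalings and filters, a replicate block and leaving out each library were alternatives.

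The 10 members and the lists of pathway and marker genes were chosen with earlier results of these data known, and the KEGG list was added after values were seen. All members were named, with CTNNB1, MYC, CCND1, GLUL and, per pathway list and direction, up to 3 called genes of smallest adjusted p. Averaged over the tested genes, libraries of a group differed by more than counting noise (chi-square per gene 42.71 to 52.64). None was thus treated as the same library deposited again. Separate preparations from 1 culture would differ by more than counting noise too. A mean over genes does not give the spread of single genes, such as that of NKD1.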

Additional observations from a re-analysis of the deposited data

How the results depend on the processing

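The calls of the members were 3 higher and 1 lower under most settings. With DESeq2, 2 were lower, since SP5 had an adjusted p of 0.0208 there, and with 1 library left out the calls ranged from 2 to 3 higher and from 1 to 2 lower. SP5 had an adjusted p of 0.0414 without the first sh-LINC01977 library (edgeR). Past the fold threshold the members numbered 0 in each direction under every setting. Of 138 member values under other settings, 134 kept their direction and their side of the threshold, 4 changed side and 0 changed sign. Of 306 values of the 22 other named genes, 256 kept both, 49 were no longer past the threshold, 1 was newly past it and 0 changed sign. These losses were in SOX9, TNKS, TLE3, DVL3, AHR and CREBBP.

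Over all genes, 1455 were higher with library totals, against 948. With 1 library left out, where fewer samples were tested, 549 to 669 genes were higher and 627 to 738 lower. Past the fold threshold, 209 genes were higher and 141 lower, against 732 and 351 without a filter, 125 higher when the mean FPKM had to reach 1, and 59 and 41 with limma on log2(FPKM + 1). Of the pathway genes, 11 were lower, against 7 with limma on log2(FPKM + 0.1), 7 with limma on log2(FPKM + 1) and 7 to 9 with 1 library left out. For these shifts, the cause was not tested. LEF1 has no value of its own under the filter settings, and TLE3 and DKK4 have none under the stricter filter.

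The labels do not say whether equal replicate numbers mark pairs. Over the tested genes, same-numbered libraries correlated by -0.032, 0.011 and 0.056 in their deviations from group means. Libraries of different numbers correlated by -0.064 to 0.054. A correlation over all genes cannot show whether single genes vary with the replicate number, and LGR4 and APC were low in the third library of both groups. A fit with a replicate block called 636 genes higher and 754 lower, and among the members 3 higher and 1 lower. Each library held at least 49929024 counts. Among the members and named pathway genes, depth limits LEF1, with 51 to 95 counts, and DKK4, with 12 to 90 counts, most. The targeted LINC01977 had 0 to 16 counts, and some of the named overlapping genes and markers also had few.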
